A study of Mus musculus with 13 samples.

Results

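Binding of the glucocorticoid receptor (GR) was examined at the genes of integrins and laminins. The genes were chosen by symbol: every mouse gene whose name fits the integrin alpha and beta series or the laminin alpha, beta and gamma series. The gene table held 42 such genes of 21900 protein-coding genes, and 27 of them carried at least 1 GR peak in the deposited lists. The name rule takes 27 integrin subunits and 11 laminin chains. It also takes Itgb1bp1, Itgb1bp2, Itgb3bp and Itgbl1, which share the name but encode no subunit.

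The data were chromatin immunoprecipitation followed by sequencing (ChIP-seq) in primary mouse embryonic fibroblasts, with 13 libraries in 5 groups and 1 antibody against GR throughout. The fibroblasts were grown for 7 days from male C57BL/6 embryos of day 13.5, from which head and internal organs had been taken out. Cells labelled GR wt/wt (3 libraries), GR Zn/Zn (4 libraries) and GRKO/KO (2 libraries) had received 1 µM dexamethasone (Dex, a synthetic hormone that activates GR) for 16 h together with lipopolysaccharide (LPS, a bacterial product that starts inflammatory signalling, 100 ng/µl for 3 h). GR wt/wt and GR Zn/Zn cells were also profiled after the same Dex treatment without LPS (2 libraries each). GR Zn/Zn cells carry a mutation in a zinc finger of the DNA-binding domain of the receptor and are called mutant here. Every group had received Dex, so none shows binding without hormone.

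Integrins are cell surface receptors made of 1 alpha and 1 beta chain. They tie the cell to fibronectin, collagen, laminin and other matrix proteins and connect these to the actin cytoskeleton. Laminins are secreted trimers of an alpha, a beta and a gamma chain and form the sheet-like scaffold of basement membranes. Fibroblasts make both families, and glucocorticoids are known to alter matrix and adhesion genes in many cell types.

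The Dex+LPS libraries had been merged into 3 lists of peaks, each 200 bp wide: 18953 wild-type-specific peaks, 3533 shared by both genotypes and 2187 specific to the mutant, with peaks of the knockout cells removed. Peaks carry no height or score and the merged lists no replicates, so counts below are descriptions of these lists, with no test across samples; the sequencing depth is unknown. Each of 10 fibroblast marker genes had a Dex+LPS peak, against 2 of 5 macrophage, 4 of 5 endothelial and 3 of 5 epithelial markers. Among all protein-coding genes 34.4% had one, and the 3 peaks at macrophage markers were all mutant-specific. A peak shows binding and not expression, so these counts do not measure which cells were present.

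1 peak lay directly on the start of a gene of the set, and the sequence under it was available. The start belonged to Itgb1, the beta chain shared by most integrins of fibroblasts (mm10, plus strand), and the peak was shared by both genotypes (chr8:128685462-128685661). Itga5, which pairs with Itgb1 in the main fibronectin receptor (minus strand), had a mutant-specific peak inside the gene, 257 bp from its start (chr15:103366435-103366634). Itgav, the alpha chain of the vitronectin receptors (plus strand), had a wild-type-specific peak inside the gene, 329 bp from its start (chr2:83724626-83724825). The RefSeq span of Itgav (chr2:83722303-83806917) begins farther upstream than this start, so the window shown for it lies inside that span. The 250 bases before each of these 3 starts are shown from RefSeq (GRCm38.p6, the mm10 assembly), 5′ to 3′ in the direction of transcription. Capitals mark matches to the motifs searched, and the windows are chr8:128685404-128685653, chr15:103366792-103367041 and chr2:83724147-83724396.
Itgb1: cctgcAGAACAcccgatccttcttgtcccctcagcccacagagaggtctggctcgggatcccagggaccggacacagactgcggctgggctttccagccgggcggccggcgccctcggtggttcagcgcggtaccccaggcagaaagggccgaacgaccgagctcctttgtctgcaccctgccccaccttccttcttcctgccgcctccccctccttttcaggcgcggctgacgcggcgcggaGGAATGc
Itga5: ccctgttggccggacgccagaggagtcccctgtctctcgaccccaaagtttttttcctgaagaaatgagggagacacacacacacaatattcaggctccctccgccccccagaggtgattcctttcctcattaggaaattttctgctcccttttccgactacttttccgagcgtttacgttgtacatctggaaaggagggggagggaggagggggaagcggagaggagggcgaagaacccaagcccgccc
Itgav: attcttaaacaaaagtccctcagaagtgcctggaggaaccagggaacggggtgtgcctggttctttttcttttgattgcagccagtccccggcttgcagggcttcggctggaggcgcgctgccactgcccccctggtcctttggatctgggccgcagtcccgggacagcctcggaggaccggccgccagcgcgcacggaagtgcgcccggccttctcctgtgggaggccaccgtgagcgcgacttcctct

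The Itgb1 peak covered the last 192 of its 250 bases, whereas the peaks at Itga5 and Itgav began beyond these windows, downstream of the start. Searched on both strands were the full palindromic GR element, the hexamer AGAACA (1 arm of the full element), the AP-1 site TGANTCA, the NF-kB site and the TEAD site GGAATG. In Itgb1 AGAACA stood 245 to 240 bases before the start, outside the peak, and GGAATG stood 7 to 2 bases before the start, inside it. Of all 32851 windows of this length, 16.1% held AGAACA, 12.6% the TEAD site, 6.75% the AP-1 site, 1.41% the NF-kB site and 0.00913% the full GR element. The windows of Itga5 and Itgav held no exact match to any of the 5. Only exact letters counted, with N standing for any base, so sites that differ from them were not searched. GC content was 68.0% in Itgb1, 55.6% in Itga5 and 64.4% in Itgav, against a median of 52.4% over all windows.

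Wild-type binding reached most integrin and laminin genes, and mutant binding a smaller share of them. A wild-type-specific peak was assigned to 26 of the 42 genes (61.9%), a shared peak to 12 (28.6%) and a mutant-specific peak to 7 (16.7%). Among all protein-coding genes the shares were 30.6%, 9.37% and 5.36%. Counting both lists of a genotype, 27 genes had wild-type binding (64.3%, beside 33.0% of all genes) and 14 had mutant binding (33.3%, beside 12.6%). Any Dex+LPS peak was found at 27 genes, beside 34.4% of all genes. Having a peak is what brought a gene into the set of 27, so only the shares over all 42 can be set beside these backgrounds. The 42 genes carried 109 wild-type-specific peaks, 20 shared by both genotypes and 9 specific to the mutant. Genes with a peak had a median of 4 peaks, against 2 among all protein-coding genes with a peak. Of the 27, 4 (Lama2, Itga5, Lama4 and Lamc1) had 10 or more (14.8%), beside 294 of the 7524 protein-coding genes with a peak (3.91%). These values were not compared at like gene length.

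**Figure D1:**
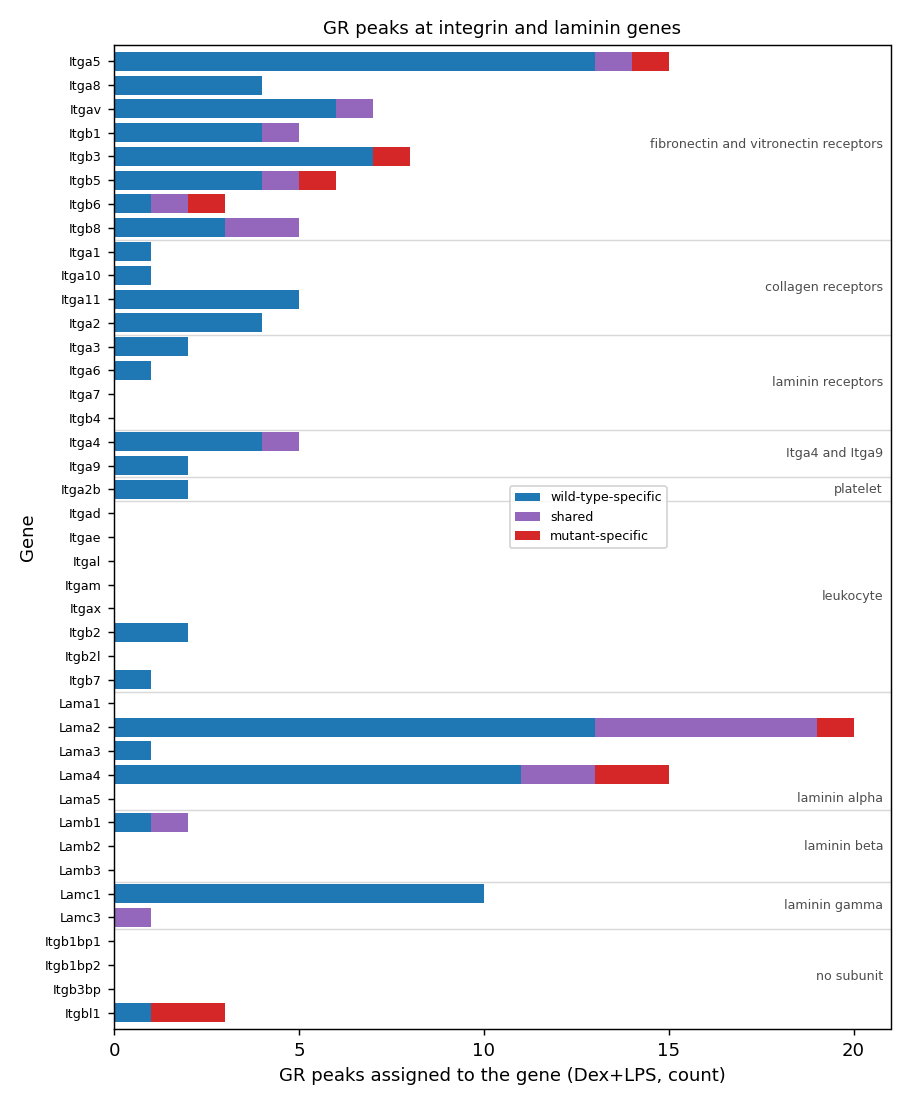
Number of Dex+LPS GR peaks (x axis, count) assigned to each of 41 genes (y axis, grouped by role), coloured by list (specific to wild type, shared, specific to mutant). Lama2 has 20 peaks, Itga5 and Lama4 have 15 each, and 15 genes have none.

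Integrin and laminin genes are long, and longer genes more often had a peak. Among all protein-coding genes, 21.5% of those under 20 kb had a Dex+LPS peak, 42.3% of those of 20 to 100 kb and 72.4% of those over 100 kb. Their median length was 61.8 kb, against 17.1 kb for all protein-coding genes, and across the 42 genes length and number of peaks had a rank correlation of 0.52 (Spearman, a description across genes). Of the 12 genes over 100 kb, 11 had a wild-type-specific peak (91.7%), beside 69.4% of all genes of that length, and 5 had a mutant-specific peak (41.7%), beside 12.4%. Shared peaks reached 4 of these 12 genes (33.3%), beside 26.1%. Among the 24 genes of 20 to 100 kb, 12 had a wild-type-specific peak (50.0%, beside 38.1%), 8 a shared peak (33.3%, beside 10.1%) and 2 a mutant-specific peak (8.33%, beside 5.74%). The 6 genes under 20 kb had wild-type-specific peaks in 3 cases (50.0%, beside 17.8%) and no shared or mutant-specific peak. Beside the shares over all lengths, the excess over the background at like length was smaller for wild-type-specific peaks of the longer classes. It was also smaller for shared peaks over 100 kb and mutant-specific peaks at 20 to 100 kb. For shared peaks at 20 to 100 kb and mutant-specific peaks over 100 kb it was not smaller. Whether length accounts for the counts was not tested. The classes hold few genes, so these shares are coarse.

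**Figure D2:**
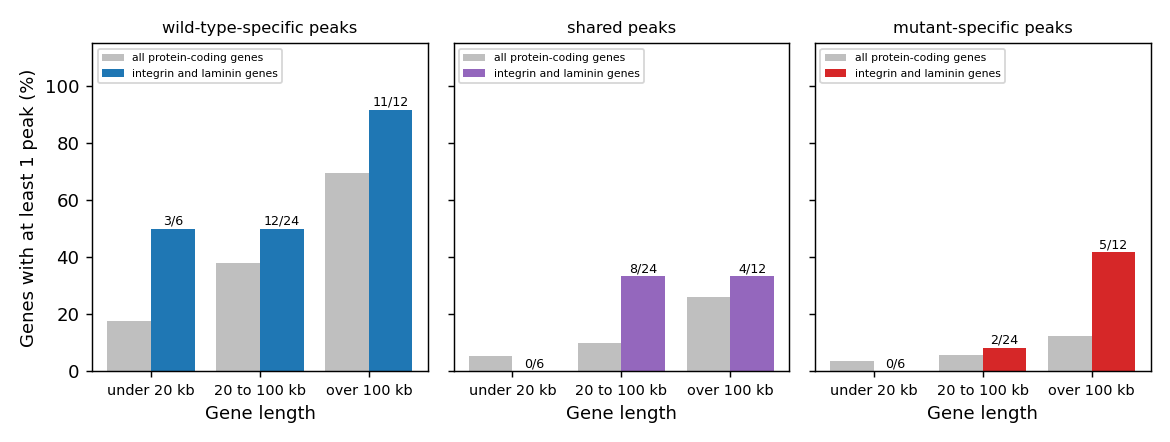
Share of genes with at least 1 peak (y axis, %) by gene length (x axis) for each class of Dex+LPS peak; grey bars are all protein-coding genes and coloured bars the integrin and laminin genes, with their counts above. For genes over 100 kb the coloured bars stand at 91.7%, 33.3% and 41.7% beside 69.4%, 26.1% and 12.4%.

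The part of wild-type sites at these genes that was also found in the mutant was close to that at other genes. Of 129 wild-type peaks, 20 were shared, 15.5% (exact binomial 95% interval 9.73 to 22.9%), beside 15.7% of the peaks at all other genes. Seen from the mutant, 20 of 29 peaks were shared, 69.0% (49.2 to 84.7%), beside 61.7% elsewhere. These intervals cover counting error only, and peaks of 1 gene are not independent. At laminin chains 12 of 53 wild-type peaks were shared (22.6%, interval 12.3 to 36.2%) and at integrin subunits 8 of 75 (10.7%, interval 4.72 to 19.9%). The 2 intervals overlap, and 6 of the 12 shared laminin peaks belonged to Lama2 alone.

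Fibronectin and vitronectin receptors were bound throughout. All 8 genes of this group (Itga5, Itga8, Itgav, Itgb1, Itgb3, Itgb5, Itgb6 and Itgb8) had wild-type-specific peaks, 6 had shared and 4 had mutant-specific peaks, with 42, 7 and 4 peaks in all. Among all protein-coding genes 30.6%, 9.37% and 5.36% had such peaks, and this group was not compared with genes of like length. Itga5 had 13 wild-type-specific peaks, 1 shared by both genotypes and 1 specific to the mutant. Of these 15 peaks, 14 formed an unbroken run with gaps of at most 5 kb over 25.7 kb (chr15:103357350-103383052), and Itga5, at 22.5 kb, was the shortest gene of the set with a shared peak. Within that run the only shared peak lay 3.95 kb upstream of the start (chr15:103370645-103370844), between wild-type-specific peaks 1.37 and 5.21 kb upstream.

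Itgav had 6 wild-type-specific peaks and 1 shared peak, which lay inside the gene 35.8 kb from the start (chr2:83760126-83760325). Of its possible partners, Itgb3 had 7 wild-type-specific peaks and 1 mutant-specific peak, all inside the gene and 10.8 to 45.4 kb from the start. Itgb5 had 4 wild-type-specific peaks, 1 shared by both genotypes and 1 specific to the mutant, all inside the gene too. Itgb6, best known from epithelia, had 1 peak in each list, and Itgb8 had 3 wild-type-specific and 2 shared peaks. Itgb1 had 4 wild-type-specific peaks beside the shared peak at its start, none of them inside the gene. The nearest lay 5.60 kb upstream (chr8:128679956-128680155) and the farthest 58.7 kb from the start, past the end of the gene. Itga8, a receptor of nephronectin, had 4 wild-type-specific peaks 127 to 252 kb from its start and no mutant peak.

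Of the 4 alpha chains of collagen receptors and the 4 genes of laminin receptors, 6 in all had wild-type-specific peaks, beside 30.6% of all genes. Shared and mutant-specific peaks were not found at any of them, beside 9.37% and 5.36% of all genes, and 8 genes are too few to differ visibly from these shares. Itgb1, the beta chain shared by most integrins, was counted with the fibronectin and vitronectin receptors and had a shared peak. The collagen-binding alpha chains Itga1, Itga2, Itga10 and Itga11 had 1, 4, 1 and 5 wild-type-specific peaks and none in the mutant. The Itga1 peak lay past the end of the gene, 156 kb from its start. At Itga11, the collagen receptor typical of fibroblasts, all 5 peaks lay upstream, 37.5 to 60.8 kb from the start, and 4 of them within 10.2 kb (chr9:62616921-62627143). The laminin-binding alpha chains Itga3 and Itga6 had 2 and 1 wild-type-specific peaks, and Itga7 and Itgb4, parts of the muscle and the hemidesmosome laminin receptor, had no peak. Itga4, which binds fibronectin and Vcam1, had 4 wild-type-specific peaks and 1 shared peak, all upstream, and the shared one was the most distant at 167 kb (chr2:79087950-79088149). Its relative Itga9 had 2 wild-type-specific peaks.

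Of the 8 genes of leukocyte integrins, Itgb2 (2 peaks) and Itgb7 (1 peak) were bound, by wild-type-specific peaks, a share close to the 30.6% of all genes, while Itgad, Itgae, Itgal, Itgam, Itgax and Itgb2l had none. Itga2b, the platelet alpha chain, had 2 wild-type-specific peaks inside the gene, 2.56 and 3.85 kb from its start. The Itgb7 peak (chr15:102232801-102233000) lay 965 bp upstream of the start in the authors' annotation, but inside the longer RefSeq span of the gene (chr15:102215994-102233405).

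Most laminin binding was at 3 genes. Lama2, Lama4 and Lamc1 held 45 of the 56 laminin peaks. Lama2, the alpha chain of muscle and nerve basement membranes and the longest gene of the set (636 kb), had 13 wild-type-specific peaks, 6 shared by both genotypes and 1 specific to the mutant. Counting the peaks inside the gene alone, this was 2.67 peaks per 100 kb, below the 26.7 of Itga5 and the 7.6 of Lama4. With the peaks outside the gene included, the values were 3.15, 66.6 and 10.4 per 100 kb of gene. Shared peaks of Lama2 came in 2 tight groups inside the gene. In 1 of them, 2 wild-type-specific, 2 shared and the mutant-specific peak lay within 7.37 kb (chr10:27256034-27263405), and in the other, 2 wild-type-specific and 2 shared peaks within 3.74 kb (chr10:27354590-27358331). The remaining shared peaks lay singly, 154 kb into the gene and 196 kb upstream.

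Lama4, the alpha chain of vessel and mesenchymal laminins, had 11 wild-type-specific peaks, 2 shared by both genotypes and 2 specific to the mutant. A wild-type-specific peak lay 419 bp inside its start (chr10:38965834-38966033), and a run of 7 peaks of all classes began there and extended over 16.4 kb. Both shared peaks were in this run, 14.1 and 16.6 kb from the start. Lamc1, the gamma chain of most laminins, had 10 peaks, the highest number without any mutant peak. Of these, 7 were inside the gene, and 1 lay 1.13 kb upstream of the start (chr1:153333820-153334019).

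Among the other chains, Lamb1 had 1 wild-type-specific and 1 shared peak, Lama3 had 1 wild-type-specific peak and Lamc3 1 shared peak. The Lama3 peak lay past the end of the gene, 277 kb from its start. Lama1, Lama5, Lamb2 and Lamb3 had none. The chains Lama2 or Lama4, Lamb1 and Lamc1, which make up the laminins of mesenchymal tissue, all carried peaks, and of these only Lamc1 had none in the mutant list.

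**Figure D3:**
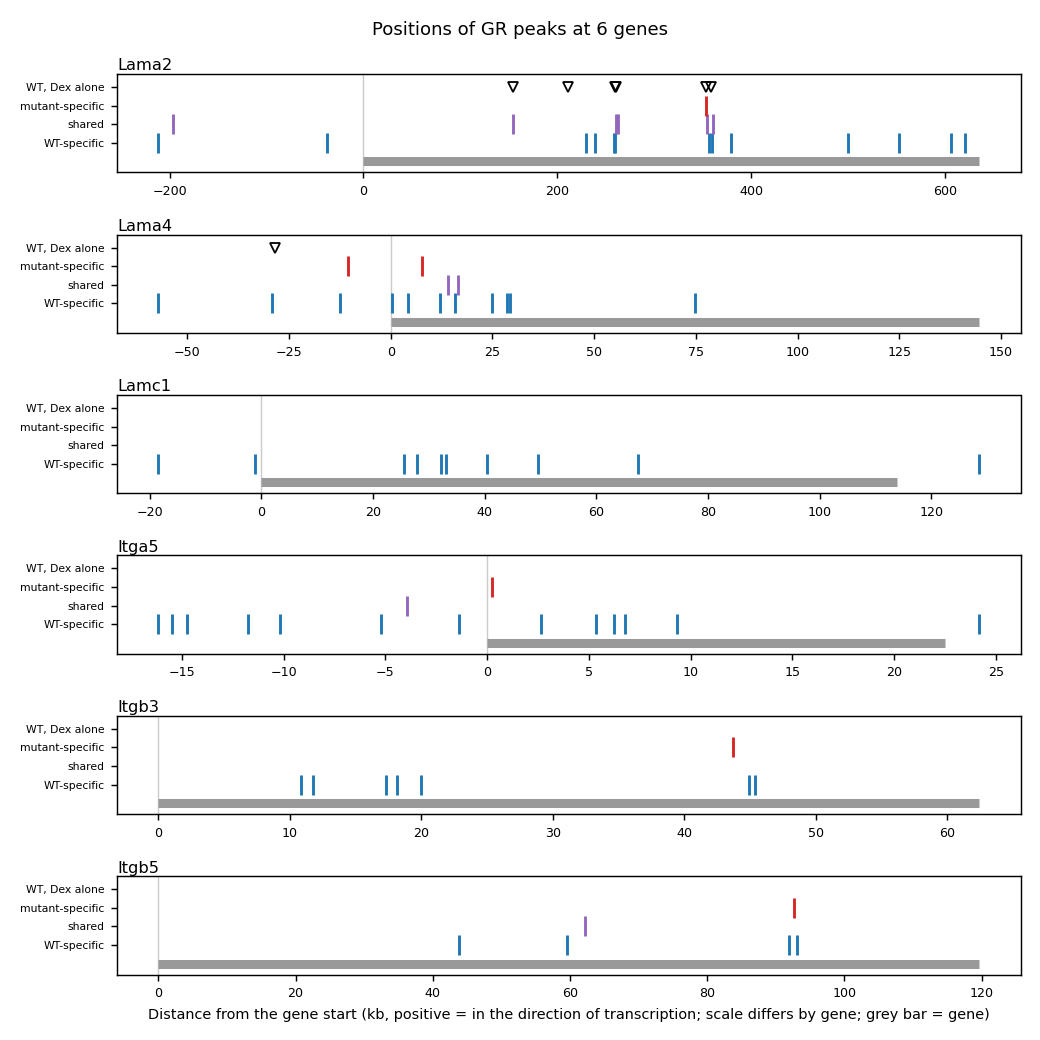
Distance of each GR peak from the gene start (x axis, kb, positive in the direction of transcription, a scale of its own for each gene) at 6 genes; rows are the Dex+LPS peaks specific to wild type, shared or specific to mutant, and the wild-type Dex peaks, and the grey bar is the gene. The mutant-specific peaks of Itgb3, Itgb5 and Lama2 stand 1.04, 0.169 and 0.807 kb from a peak of the wild-type list.

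Mutant-specific peaks, at these genes as elsewhere, were often close to wild-type binding. Of the 9 peaks, 6 lay within 5 kb of a wild-type Dex+LPS peak (66.7%), beside 44.4% of the 2178 mutant-specific peaks elsewhere. The median gap was 1.84 kb, against 7.61 kb elsewhere. Of the 20 shared peaks, 10 lay within 5 kb of a wild-type-specific peak (50.0%), beside 37.8% elsewhere. With 9 and 20 peaks, several of them from the same genes, these shares are too coarse to set apart from those elsewhere. Genes of the set with a peak had a median of 4 peaks, against 2 among all protein-coding genes with a peak. The gaps were not compared at like number of peaks. Chromosomes 10 to 14, with 39.9% of all mutant-specific peaks, held 6 of the 9, and 3 peaks at 3 genes remained without them; the part of these chromosomes in the counts was not tested. The mutant-specific peak of Itgb5 (chr16:33922246-33922445) fell between 2 wild-type-specific peaks, 0.169 kb from the nearer one. At Itgb3 (chr11:104651604-104651803) the gap was 1.04 kb, at Itga5 1.43 kb and at Lama2 (chr10:27263206-27263405) 0.807 kb. Both mutant-specific peaks of Lama4 (chr10:38954908-38955107 and chr10:38973159-38973358) lay 1.84 and 3.31 kb from wild-type-specific peaks. The other 3 were farther from the wild-type Dex+LPS peaks: that of Itgb6 (chr2:60632844-60633043) was 56.0 kb from the nearest one, and those of Itgbl1 (chr14:123788935-123789134 and chr14:123809471-123809670) were 85.3 and 64.7 kb away. A site only in the mutant list can thus lie beside a wild-type site that the lists count separately, and no heights were used here that would show how far the signals differ.

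Binding was limited to wild-type lists at 13 of the 27 bound genes (48.1%), beside 66.0% of the 7219 protein-coding genes that had wild-type binding. The bound genes of the set had a median of 4 peaks, against 2 among all protein-coding genes with a peak. These shares were not compared at like number of peaks or gene length. These 13 genes (Itga1, Itga2, Itga2b, Itga3, Itga6, Itga8, Itga9, Itga10, Itga11, Itgb2, Itgb7, Lama3 and Lamc1) held 36 wild-type peaks, of which Lamc1 gave 10. The other 14 genes had both, and at Itgbl1 mutant-specific peaks (2) outnumbered wild-type-specific ones (1). Lamc3 was the only gene with a shared peak and no wild-type-specific peak.

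Peaks of the set lay mostly inside the genes and away from their starts. Inside the gene were 58.7% of the wild-type-specific, 75.0% of the shared and 88.9% of the mutant-specific peaks, beside 47.5%, 43.9% and 46.5% at other genes. Within 5 kb of a start lay 9 of 109, 2 of 20 and 1 of 9 peaks (8.26%, 10.0% and 11.1%), beside 17.1%, 22.0% and 28.9%. From the start, wild-type-specific peaks lay a median of 34.5 kb away, shared ones 59.2 kb and mutant-specific ones 89.7 kb, beside 42.4, 37.2 and 20.8 kb. The genes of the set are longer (median 61.8 kb, against 17.1 kb for all protein-coding genes), and these shares were not compared at like length. Whether a peak fell in an exon or an intron was not determined, since the gene table holds gene spans only.

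**Figure D4:**
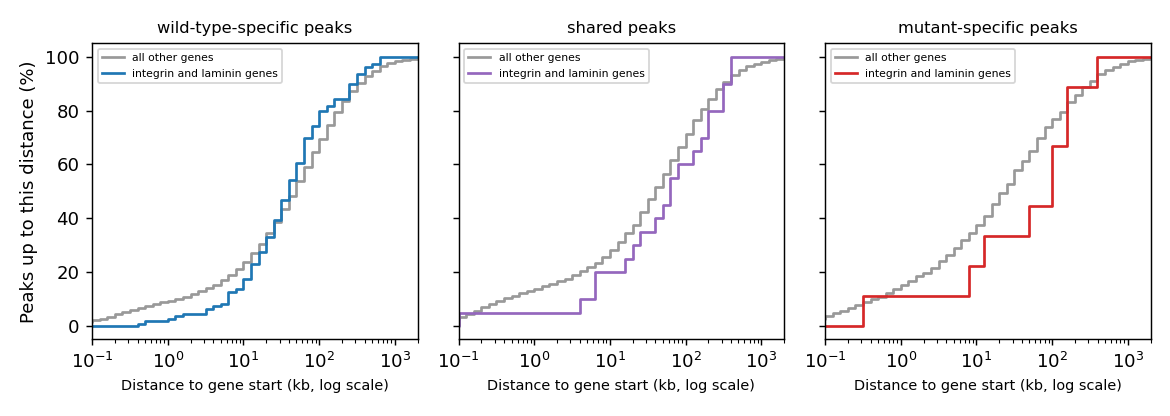
Cumulative share of peaks (y axis, %) by distance to the gene start (x axis, kb, log scale) for each class of Dex+LPS peak, at integrin and laminin genes (coloured) and at all other genes (grey). The medians are 34.5, 59.2 and 89.7 kb in colour and 42.4, 37.2 and 20.8 kb in grey.

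With Dex alone, wild-type libraries had peaks at Lama2, Lama4, Itgbl1 and Itgb6, and mutant libraries at none of the genes. Wild-type library 1 had 4 peaks at 3 genes (2 at Lama2, 1 at Lama4 and 1 at Itgbl1) and library 2 had 5 peaks at 2 genes (4 at Lama2 and 1 at Itgb6). Both mutant libraries had 0. The wild-type mean was 4.5 ± 0.707 peaks (SD, n = 2) and the mutant mean 0, a difference in the same direction in all pairs of libraries (exact permutation test, two-sided, p = 0.33, the smallest 2 against 2 libraries can give). The mutant lists were short, with 53 and 60 peaks, and a count of 0 allows shares of up to 5.66% and 5.00% of them if the limit is set at 3 peaks, or 6.72% and 5.96% by the exact binomial 95% interval (counting error only). Wild-type peaks at these genes were 0.971% of 412 and 0.585% of 854 peaks, below those limits, so a loss in the mutant was not detectable at this list length. Among all protein-coding genes, 1.09% and 1.86% had a peak in wild-type library 1 and 2 and 0.142% and 0.183% in mutant library 1 and 2, beside 7.14%, 4.76%, 0 and 0 of the 42 genes. The labels do not say whether the 2 libraries of a group are separate cultures, and the p-value may then measure technical spread only.

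Most of this rested on Lama2 and on chromosome 10. Of the 9 Dex peaks, 8 lay on chromosomes 10 to 14, which held 68.2% and 73.9% of all peaks of the wild-type Dex libraries, 26.4% and 31.7% of the mutant ones and 15 of the 42 genes. Without these chromosomes a difference of 0.500 peaks per library remained (exact permutation test, p = 1.0), and without Lama2 alone a difference of 1.5 (exact permutation p = 0.33). The part of the uneven chromosomes in the result was not tested further. Per Mb, Lama2 had 3.15 and 6.29 Dex peaks in wild-type library 1 and 2, where chromosome 10 up to its last gene had 0.613 and 1.16.

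No Dex peak of the set was found in both wild-type libraries, and 2 of 9 overlapped a Dex+LPS peak by at least 1 bp. Both were Lama2 peaks of library 2 lying on shared peaks, at chr10:27356205-27356480 and chr10:27462341-27462657. The first covered the whole Dex+LPS peak and the second reached only its edge. The same shares over all wild-type Dex peaks were not set beside these counts, so they are no trait of these genes. The lists also differ in form: Dex+LPS peaks were all 200 bp wide, and wild-type Dex peaks had median widths of 273 and 298 bp. Several others of the 9 lay close by. The nearest, a Lama2 peak of library 2 (chr10:27263768-27264069), was 0.362 kb from a mutant-specific Dex+LPS peak. The Lama2 peak of library 1 at chr10:27357024-27357236 was 0.523 kb from a wild-type-specific Dex+LPS peak, and the Lama4 peak (chr10:38936984-38937346) 0.622 kb. The Itgb6 peak (chr2:60631838-60632069) lay 0.774 kb from the mutant-specific Dex+LPS peak of that gene, although it came from wild-type cells.

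Genes that work with integrins and laminins are given beside the shares of all genes with a peak in the same 3 lists, 30.6%, 9.37% and 5.36% in the order wild-type-specific, shared, mutant-specific. Of 22 genes of integrin activation and adhesion signalling, 17 carried wild-type-specific binding, 9 carried shared and 4 mutant-specific binding, and 11 of their peaks were shared, beside 81 that were wild-type-specific. Nedd9, an adhesion scaffold protein, had 15 peaks, all wild-type-specific, and Parva, which links integrins to actin through Ilk, had 11, 3 and 1. Tln2 had 8 wild-type-specific peaks and 1 shared peak, and Ptk2, the focal adhesion kinase, 6 and 1. Pxn, Fermt1, Fermt3 and Lims2 had none. Of 12 partners and other receptors of laminin, 10 had a wild-type-specific peak, 2 (Hspg2 and Sdc4) a shared peak and none a mutant-specific peak. Nid1, which joins laminin to collagen, had 6 wild-type-specific peaks. Collagen genes, the nearest matrix family, had wild-type-specific peaks at 30 of 44 genes, shared at 14 and mutant-specific at 10, with 17.6% of wild-type peaks shared. These counts stand side by side with no test of a difference between the lists.

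The genes outside the set whose counts in the 3 classes were nearest to those of Lama2 were Arid5b (13 wild-type-specific peaks, 5 shared by both genotypes and 1 specific to the mutant), Irf2bp2 (11, 8 and 1), Klf4 (13, 4 and 1), Col24a1 (12, 4 and 1) and, at equal distance, Fgf9 and Tead1 (10, 4 and 1 each). Nearness was the Euclidean distance of log2(count + 1) over the 3 merged lists, which do not include replicates.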

How the data were processed

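The deposited values were positions and distances in base pairs, with no count, score or p-value for any peak. BWA 0.7.13, Picard 1.119, MACS2 2.1.0 and build mm10 are named, without a role, per the submitters' processing notes. Merging by genotype and removal of knockout peaks are stated per the file names; how each was done, and the depth, are not given in the sources used here. Deeper or more libraries can give longer lists.

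Each peak kept the gene and the signed distance to its start that the authors' annotation gives. Peaks of each gene of the set were taken by gene symbol. For the shares of genes with a peak, genes were matched by Entrez identifier to a RefSeq gene table of the same assembly (GRCm38.p6). Coordinates are 1-based. For Itgb6, Itgbl1 and Lama2 the merged and the Dex lists use slightly different gene spans. Overlap means at least 1 bp; overlap and assignment to gene bodies were tested on simulated data. Promoter windows were found for 27 of the 42 genes. The named genes are all those of the name rule with a peak; roles and lists are from background knowledge. Totals cover all 42 genes, of which 1 is not reported here by name. The members and lists were chosen with earlier results of these data known. Alternatives were assignment by gene body, a 100 kb limit, subunits only, leaving out chromosomes, libraries or Lama2, a gene-weighted share and a stricter overlap. Tables were handled with pandas 2.3.3 in Python 3.11.15, tests run with scipy 1.17.1 and figures drawn with matplotlib 3.10.9.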

Additional observations from a re-analysis of the deposited data

How the results depend on the processing

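Of 39 values under alternative settings, 8 counts moved by more than 1.5 times, a limit that was not applied to the Dex difference. The Dex difference of 4.50, which no setting could bring past a threshold, kept its direction in every setting run but fell to 0.500 without chromosomes 10 to 14 and to 1.5 without Lama2. With peaks assigned to the gene body that holds them, wild-type-specific peaks numbered 66 (109 by the authors' annotation), at 21 genes (26 by that annotation). Over the 3 classes together, 50 peaks outside the bodies dropped out. A wild-type-specific peak in Itga1, assigned to Pelo by the authors, came in. Within 100 kb of the start 12 shared peaks were left of 20. Without chromosomes 10 to 14, where 15 of the 42 genes lie, 15 genes had a wild-type-specific peak, with 62 such peaks, 9 shared peaks, and 3 mutant-specific peaks at 3 genes. The shared percentage of wild-type peaks ran from 12.1 to 18.5% over all settings, among them 12.7% without Lama2, a setting chosen after seeing the data. Leaving out 1 Dex library at a time gave differences of 4.00 to 5.00 peaks per library. Nothing says that the replicate numbers pair the Dex libraries; with the replicate block the difference was 4.50 (exact permutation p = 0.50, the smallest 2 pairs can give). With the stricter overlap 1 of the 2 Dex peaks still lay on a Dex+LPS peak. A stricter peak threshold could not be run, since peaks carry no score, and the unknown depth limits every absence reported here.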
